A study of Mus musculus with 26 samples.

Results

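The genes that build and load the elastic microfibril were followed in brown preadipocytes: the latent TGF-β binding proteins Ltbp1, Ltbp2, Ltbp3 and Ltbp4, the fibrillins Fbn1 and Fbn2, elastin (Eln), the fibulin Fbln5, and the ligands Tgfb1 and Tgfb3. They were chosen by symbol and are 10 of the 52962 genes in the count table. All 10 were among the 15402 genes that passed the filter on low counts. Ltbp2 led to this choice because it had been seen to be low in the lines whose receptor keeps an intracellular domain. Its values in those lines (IR, K1030R, ∆CT) set against DKO or JMO cells are therefore given as a description with no test, and it is left out of the counts of members in those comparisons.

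TGF-β is secreted in a latent form, held in a shell made from its own propeptide. Latent TGF-β binding proteins tie that complex to microfibrils, which are polymers of fibrillin, and the same microfibrils are the scaffold on which elastin is laid down with the help of fibulins. Ltbp2 resembles the other family members and binds fibrillin, but is not known to carry latent TGF-β. In preadipocytes, TGF-β is known as a brake on differentiation into fat cells.

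All cells came from 1 background. Preadipocytes from the brown fat of newborn mice homozygous for floxed insulin receptor (IR) and IGF1 receptor (IGF1R) alleles were immortalized with SV40 T-antigen, and an adenovirus carrying Cre was used to delete both receptors, giving DKO cells. Retrovirus then returned to DKO cells the human IR (B isoform), a kinase-dead IR with the K1030R mutation, an IR without its C-terminus (∆CT), or an IR cut back to the juxtamembrane part of the intracellular domain (JMO). The paper's methods also list an empty vector, and selection with hygromycin. The sample titles do not say whether the DKO libraries came from cells with that vector. Each receptor is 1 stably transduced line, so receptor and line cannot be told apart. After 6 h without serum, cells were left untreated (basal) or given 100 nM insulin for 15 min, except DKO cells, which were basal only. There were 3 libraries per group and 2 for ∆CT with insulin, 26 in all in 9 groups. Nothing states that libraries of a group came from separate cultures or dishes, so the p-values measure the spread between libraries.

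Library totals ranged from 17228786 to 24694545 counts, with a median of 19933622. Insr read 23.8 ± 1.32 CPM (counts scaled to library size; SD, n = 3) in DKO cells and 65.5 to 99.7 CPM in the libraries with a returned receptor. Igf1r read 24.7 to 35.7 CPM in all libraries including DKO, so its total does not check the deletion. The Insr total in DKO cells does not check it either. For that check the paper used qPCR and immunoblots, by which it reports neither IR nor IGF1R in DKO cells. The returned receptors are human and reads were counted on the mouse transcriptome, so Insr values need not equal receptor levels. Fibroblast markers were present in every library, with Col1a1 at 3161 to 7653 CPM, Vim at 1167 to 1894 CPM and Pdgfra at 158 to 293 CPM. Of 4 brown adipocyte lineage markers, Cebpa at 5.51 to 9.58 CPM and Pparg at 2.66 to 6.39 CPM were present in every library, while Ebf2 and Prdm16 were below 0.5 CPM in each. The summed CPM of the 7 fibroblast markers was 5483 to 5962 in DKO and JMO libraries and 8584 to 10418 in IR, K1030R and ∆CT libraries, a split along the same lines as Ltbp2. Most of this sum was Col1a1, which the paper lists among genes raised in cells with the intracellular domain. The other markers of this list were not compared between lines 1 by 1. Of the other marker lists, 2 had sums that split along the same lines, in the opposite direction and at much lower levels. Sums of the rest did not split so. For 5 mature brown adipocyte markers the sum was 2.50 to 2.60 CPM in DKO, 4.16 to 4.88 in JMO and 0.551 to 2.01 CPM in the other libraries, most of it Fabp4, with Ucp1 at 0 in 25 libraries. For 5 macrophage or leukocyte markers it was 12.6 to 16.6 CPM in DKO and JMO and 6.92 to 11.4 CPM in the other libraries, with Adgre1 at 0 in all 26. The part of these differences in the results was not tested.

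The upstream sequences of Ltbp2 and Ltbp1 are shown because these related genes had different patterns across the lines. They are bases 250 to 68 upstream of the start used for each RefSeq promoter window on GRCm38.p6. Both are written 5′ to 3′ on the gene's own strand. Positions count from that start, which for Ltbp2 is not the end of the gene span given later. Capitals mark matches on either strand to the SMAD box CAGAC or the GC box GGGCGG. Ltbp2 is at chr12:84876559-84876741 on the minus strand and Ltbp1 at chr17:75005279-75005461 on the plus strand.
Ltbp2: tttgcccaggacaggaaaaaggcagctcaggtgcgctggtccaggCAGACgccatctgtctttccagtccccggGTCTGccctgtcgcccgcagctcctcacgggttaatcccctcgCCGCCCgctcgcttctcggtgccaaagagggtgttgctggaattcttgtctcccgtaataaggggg
Ltbp1: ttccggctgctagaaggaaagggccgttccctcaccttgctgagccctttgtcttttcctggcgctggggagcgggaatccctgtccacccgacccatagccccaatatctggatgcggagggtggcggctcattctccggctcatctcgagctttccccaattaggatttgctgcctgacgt
The Ltbp2 sequence held CAGAC 2 times, at 205 and 176 bases upstream on opposite strands, and GGGCGG 1 time, while the Ltbp1 sequence held neither. CAGAC occurred in 33.6% of the 32851 RefSeq promoter windows of the same length, GGGCGG in 21.5%, and the AP-1 site TGANTCA in 4.99%. Sequences were matched for 7 of the 10 members, and of these only Ltbp2 held CAGAC, none held TGANTCA, and Ltbp2, Ltbp4, Fbn1, Fbln5 and Tgfb1 held GGGCGG. A match describes letters in the window and not a bound site.

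Levels of different genes were compared as CPM per kilobase of the longest annotated transcript. In DKO cells Ltbp1 was highest at 128 ± 3.08 CPM per kb (SD, n = 3), followed by Ltbp3 at 72.5 ± 3.22, Fbn1 at 36.1 ± 0.715, Fbln5 at 25.3 ± 0.576, Tgfb1 at 23.9 ± 2.37, Tgfb3 at 14.7 ± 0.611 and Ltbp2 at 7.25 ± 0.0376 CPM per kb. Ltbp4 and Eln were low in DKO cells, at 0.471 ± 0.0659 and 0.451 ± 0.068 CPM per kb, and Fbn2 was lowest at 0.0772 ± 0.0112 CPM per kb. In IR cells the ends of this order differed, with Fbn2 at 3.23 ± 0.0459 CPM per kb and Ltbp2 lowest of the 10 at 0.166 ± 0.00518 CPM per kb. Ltbp2 and Fbn2 were the members whose level varied most between groups, by 105 times and 41.9 times between the highest and lowest group means in CPM.

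**Figure D1:**
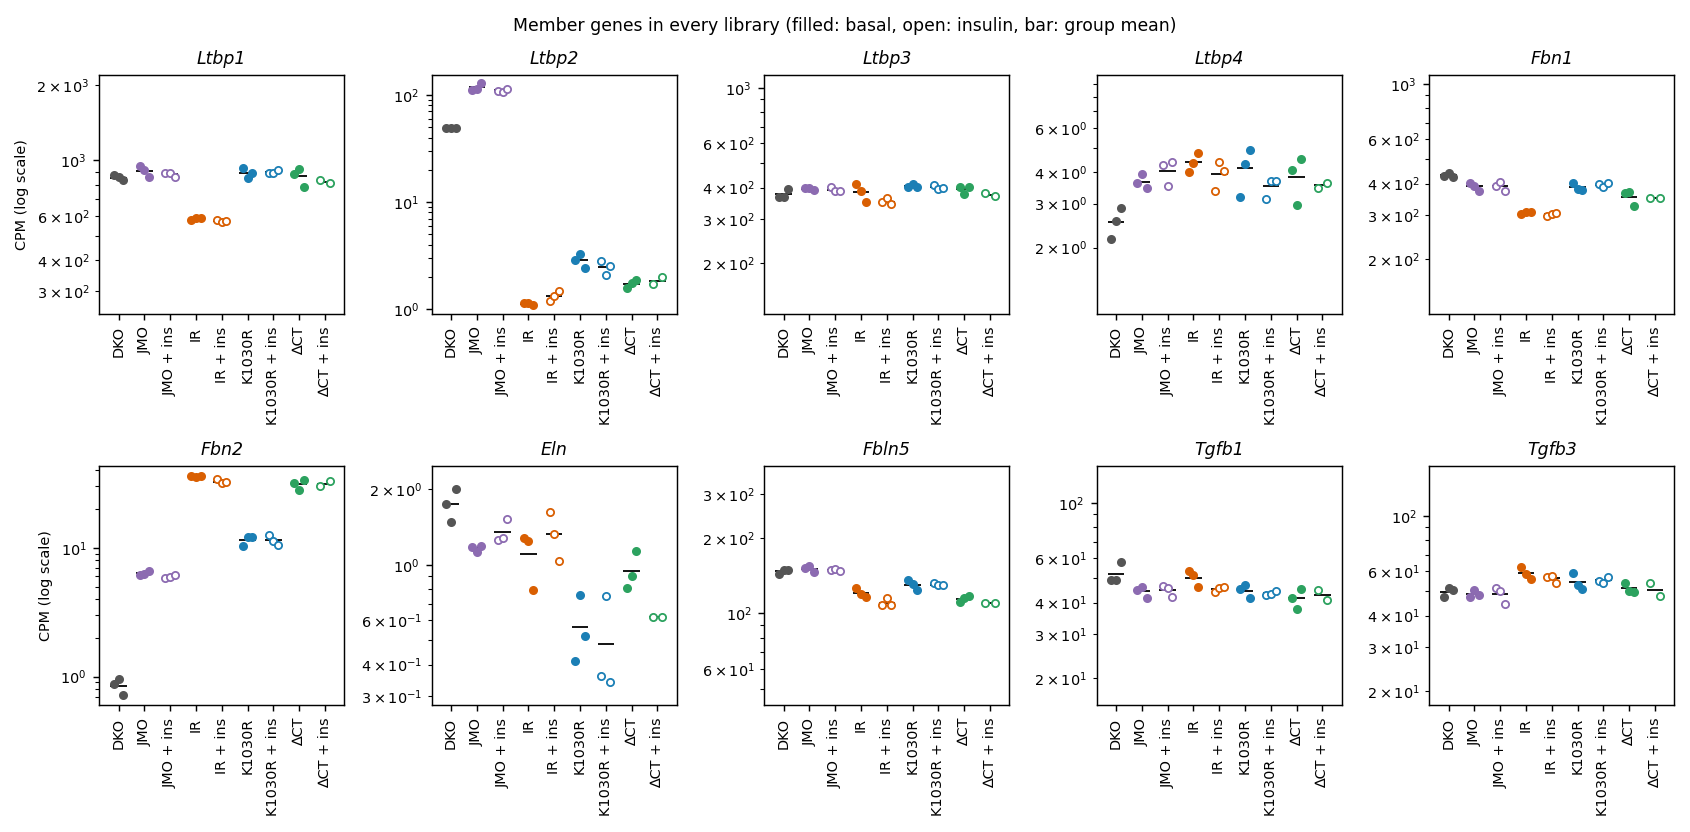
Each panel shows 1 gene, with its level in CPM on a log axis in every library of the 9 groups. Filled points are basal libraries, open points are libraries with insulin, and bars are group means. Ltbp2 and Fbn2 span more than the other 8 genes, and open and filled points of a line lie close together.

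Among the latent TGF-β binding proteins, Ltbp2 fell into 2 ranges. It read 49.1, 48.8 and 49.2 CPM in the DKO libraries and 111, 114 and 129 CPM in the basal JMO libraries. In IR libraries it read 1.15, 1.14 and 1.09 CPM, in ∆CT libraries 1.56, 1.75 and 1.86 CPM, and in K1030R libraries 2.90, 3.27 and 2.43 CPM. No library of IR, K1030R or ∆CT overlapped with a library of DKO or JMO, which is the pattern it was chosen for. Against DKO, the log2 fold change of Ltbp2 was -5.44 ± 0.10 (SE) in IR, -4.83 ± 0.09 in ∆CT and -4.09 ± 0.09 in K1030R cells, and against JMO it was -6.70 ± 0.09, -6.09 ± 0.08 and -5.36 ± 0.08. In bulk RNA, fewer cells that express a gene and less RNA per cell cannot be told apart.

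The choice did not rest on how Ltbp2 differs between DKO and JMO, or among the lines with an intracellular domain. It did use the same libraries. Ltbp2 was higher in JMO than in DKO cells by 1.27 ± 0.05 on the log2 scale (edgeR quasi-likelihood adjusted p = 3.9e-20). It was also higher in K1030R than in IR cells, by 1.34 ± 0.18 (adjusted p = 3.1e-07). The order of the 5 basal groups was JMO, DKO, K1030R, ∆CT and IR. The difference between ∆CT and K1030R was -0.74 ± 0.16 (adjusted p = 0.0055), with an adjusted p of 0.0688 without K1030R replicate 2. Between ∆CT and IR it was 0.61 ± 0.20 (adjusted p = 0.0259), and the adjusted p rose to 0.0532 to 0.077 when any of the 3 IR libraries, ∆CT replicate 2 or ∆CT replicate 3 was left out. The place of ∆CT between its neighbours in this order was thus not separated from the spread in each of these settings. As a share of the summed CPM per kb of the 4 binding proteins, Ltbp2 was 3.48% ± 0.0073 in DKO, 7.58% ± 0.812 in JMO, 0.199% ± 0.0313 in K1030R, 0.124% ± 0.0152 in ∆CT and 0.102% ± 0.000575 in IR cells (SD, n = 3).

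Ltbp1, which carries latent TGF-β to the matrix, was lower in IR cells than in each of the other 4 basal groups. It read 580, 588 and 588 CPM in IR libraries and 785 to 945 CPM in the other basal libraries, with no overlap. Against DKO it fell by 0.54 on the log2 scale in IR cells (log2 fold change -0.54 ± 0.04, adjusted p = 6.0e-13). Against IR it was higher in K1030R cells by 0.61 ± 0.04 (adjusted p = 6.9e-13) and in ∆CT cells by 0.56 ± 0.04 (adjusted p = 9.7e-12). For DKO, K1030R and ∆CT cells no difference in Ltbp1 beyond the spread was found, with log2 fold changes against DKO of 0.06 ± 0.04 in K1030R (adjusted p = 0.228) and 0.02 ± 0.04 in ∆CT cells (adjusted p = 0.787). The JMO to DKO difference was 0.09 ± 0.04 (adjusted p = 0.0981) and passed the threshold without JMO replicate 3 (0.13, adjusted p = 0.0226) or without ∆CT replicate 3 (adjusted p = 0.0311). The order of Ltbp1 levels thus set IR apart from K1030R and ∆CT, unlike that of Ltbp2, for which these lines were all low.

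Ltbp3 and Ltbp4 are the other binding proteins that carry latent TGF-β. Ltbp3 read 342 to 413 CPM over all 26 libraries. Its highest log2 fold change against DKO was 0.11 ± 0.04 in K1030R cells (adjusted p = 0.0335), which did not hold when K1030R replicate 1, 2 or 3 or DKO replicate 1 or 2 was left out (adjusted p 0.0514 to 0.14). Ltbp4 was a low gene at 2.17, 2.56 and 2.88 CPM in DKO libraries and 2.95 to 4.92 CPM in the basal libraries of the other lines, with no overlap. Against DKO, Ltbp4 rose by 0.77 ± 0.16 in IR (adjusted p = 0.000173), 0.70 ± 0.17 in K1030R (adjusted p = 0.000808) and 0.58 ± 0.17 in ∆CT cells (adjusted p = 0.00429). In JMO cells the value was 0.52 ± 0.17 (adjusted p = 0.015), and 0.0836 and 0.0541 were the adjusted p without DKO replicate 1 and without JMO replicate 2. Between the 4 receptor lines no difference in Ltbp4 passed the test, with adjusted p from 0.2 to 0.793.

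Fbn2, a fibrillin best known from developing tissue, was the member with the largest rise. It read 0.870, 0.966 and 0.721 CPM in DKO libraries and 6.14, 6.22 and 6.64 CPM in JMO libraries. K1030R libraries held 10.2, 12.2 and 12.0 CPM, ∆CT libraries 31.5, 28.0 and 33.7 CPM, and IR libraries 36.0, 35.1 and 35.9 CPM. No 2 of these 5 groups overlapped, and the order was DKO, JMO, K1030R, ∆CT and IR from low to high. Against DKO the log2 fold change of Fbn2 was 5.40 ± 0.12 in IR (adjusted p = 6.0e-29), 5.20 ± 0.12 in ∆CT (adjusted p = 4.3e-28), 3.77 ± 0.14 in K1030R (adjusted p = 5.6e-22) and 2.91 ± 0.15 in JMO cells (adjusted p = 8.4e-17). The 3 DKO libraries hold a small number of Fbn2 counts, so these folds depend on a low base.

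Neighbours in the Fbn2 order also differed, but at the top the call depended on single libraries. K1030R cells exceeded JMO cells by 0.86 ± 0.09 on the log2 scale (adjusted p = 1.4e-09), and ∆CT cells exceeded K1030R cells by 1.43 ± 0.07 (adjusted p = 6.9e-16). K1030R cells were below IR cells by a log2 fold change of -1.63 ± 0.07 (adjusted p = 5.2e-18). The ∆CT to IR difference was -0.20 ± 0.06 (adjusted p = 0.0174), but 0.0535 without IR replicate 1 and 0.192 without ∆CT replicate 2. Fbn2 was thus raised over DKO in JMO cells, where Ltbp2 was also raised, and in IR, K1030R and ∆CT cells, where Ltbp2 was low.

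Fbn1, the main fibrillin of these cells, went the other way and by less. It read 430, 442 and 426 CPM in DKO libraries and 303, 307 and 307 CPM in IR libraries, which did not overlap with any other basal line (325 to 442 CPM). Against DKO the log2 fold change of Fbn1 was -0.50 ± 0.04 in IR (adjusted p = 2.8e-13), -0.29 ± 0.04 in ∆CT (adjusted p = 7.5e-08), -0.16 ± 0.04 in K1030R (adjusted p = 0.000768) and -0.15 ± 0.04 in JMO cells (adjusted p = 0.00183). K1030R and JMO cells were not separated (-0.01 ± 0.04, adjusted p = 0.89). As a share of the 2 fibrillins per kilobase, Fbn2 was 0.213% ± 0.0271 in DKO, 1.74% ± 0.134 in JMO, 3.12% ± 0.378 in K1030R, 8.75% ± 1.28 in ∆CT and 11.2% ± 0.190 in IR cells (SD, n = 3). Fbn1 remained the larger part in all groups.

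**Figure D2:**
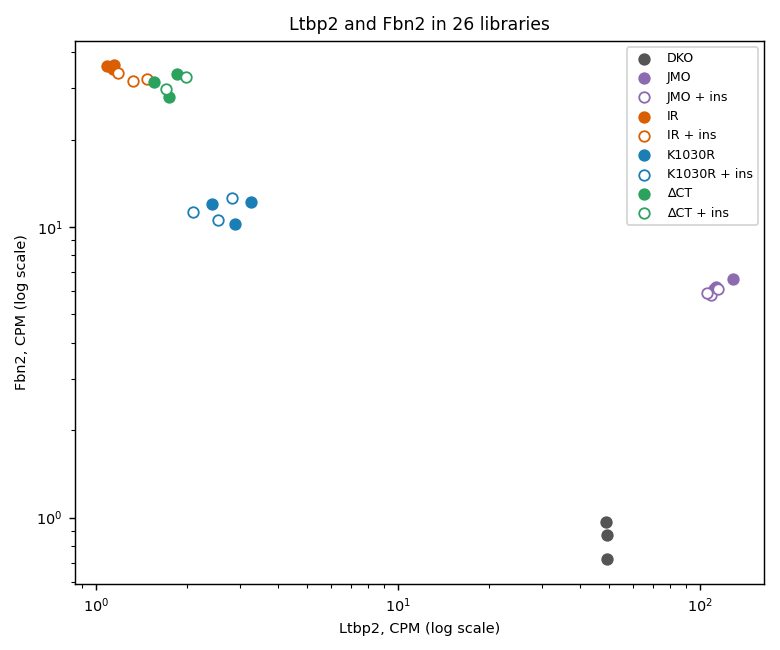
Each point is 1 of the 26 libraries, with Ltbp2 on the x axis and Fbn2 on the y axis, both in CPM on log axes, filled when basal and open with insulin. JMO libraries lie above DKO libraries on both axes, while IR, K1030R and ∆CT libraries are low for Ltbp2 and differ in Fbn2.

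Elastin, the protein that gives the fibre its recoil, was barely detected, with 0.341 to 2.0 CPM over the 26 libraries. It read 1.74, 1.48 and 2.0 CPM in DKO libraries and 0.414, 0.755 and 0.517 CPM in K1030R libraries. These groups did not overlap, and Eln fell by 1.62 on the log2 scale in K1030R cells (-1.62 ± 0.28, adjusted p = 1.3e-05). In ∆CT cells it was lower than in DKO cells by -0.89 ± 0.25 (adjusted p = 0.00409). Values of -0.66 ± 0.25 in IR (adjusted p = 0.0255) and -0.59 ± 0.24 in JMO cells (adjusted p = 0.0591) crossed the threshold with single libraries. For IR the adjusted p was 0.127 without DKO replicate 3 and 0.147 without IR replicate 3, and for JMO it was 0.0491 without DKO replicate 2 and 0.0446 without K1030R replicate 2 with insulin.

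Fbln5, a fibulin that helps elastin assemble on microfibrils, was lower in the 3 lines with an intracellular domain. It read 144, 149 and 149 CPM in DKO and 151, 155 and 146 CPM in JMO libraries. The basal IR libraries held 126, 120 and 116 CPM, the K1030R libraries 136, 131 and 124 CPM and the ∆CT libraries 111, 115 and 117 CPM, all below every DKO and JMO library. Against DKO the log2 fold change of Fbln5 was -0.37 ± 0.04 in ∆CT (adjusted p = 1.2e-10), -0.29 ± 0.04 in IR (adjusted p = 2.4e-08) and -0.18 ± 0.04 in K1030R cells (adjusted p = 9.5e-05). DKO and JMO were not separated (0.03 ± 0.04, adjusted p = 0.516). Against JMO the 3 lines were also lower, by -0.40 ± 0.04 in ∆CT (adjusted p = 2.1e-11), -0.32 ± 0.04 in IR (adjusted p = 3.0e-09) and -0.21 ± 0.04 in K1030R cells (adjusted p = 1.1e-05). The split of Fbln5 followed the same lines as that of Ltbp2, at a much smaller size.

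The ligands varied over a narrow range. Tgfb1 read 37.8 to 58.0 CPM and Tgfb3 44.5 to 62.4 CPM over all 26 libraries. Tgfb1 was lower in ∆CT than in DKO cells by -0.33 ± 0.07 (adjusted p = 0.000176), with 41.8, 37.8 and 45.1 CPM against 49.1, 49.1 and 58.0 CPM. In JMO and K1030R cells the values were -0.24 ± 0.07 (adjusted p = 0.00623) and -0.23 ± 0.07 (adjusted p = 0.0074), and both missed the threshold without DKO replicate 3, the highest DKO library (adjusted p = 0.102 and 0.111). The K1030R value also missed it without K1030R replicate 3 (adjusted p = 0.0582). Tgfb3 was higher in IR cells than in DKO cells by 0.25 ± 0.06 (adjusted p = 0.000333) and than in JMO cells by 0.28 ± 0.06 (adjusted p = 0.000104). Its IR libraries held 62.4, 58.7 and 56.2 CPM and its DKO libraries 47.5, 51.5 and 50.4 CPM, with no overlap.

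Counts of members against DKO were set beside the share of all 15402 genes that passed the same test, which adjusts for multiple testing by Benjamini-Hochberg. With a minimum fold of 1.5 (edgeR glmTreat), 2 of 10 members passed in JMO cells (Ltbp2 and Fbn2), against 2.11% of all genes. Ltbp2 is counted in JMO cells though it was chosen from the same libraries, on other comparisons. Of the other 9 members, 1 passed in IR (Fbn2, 6.89% of all genes), 2 in K1030R (Fbn2 and Eln, 5.29%) and 1 in ∆CT cells (Fbn2, 6.29%). With no minimum fold, 5 of 10 members passed in JMO (34.3% of all genes), 7 of 9 in IR (49.8%), 7 of 9 in K1030R (41.6%) and 6 of 9 in ∆CT cells (46.3%). The median log2 fold change of the members was 0.05, -0.05, 0.06 and 0.02 in JMO, IR, K1030R and ∆CT cells, beside 0.01, 0.01, 0.01 and 0.01 over all genes, so the members did not move one way together.

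**Figure D3:**
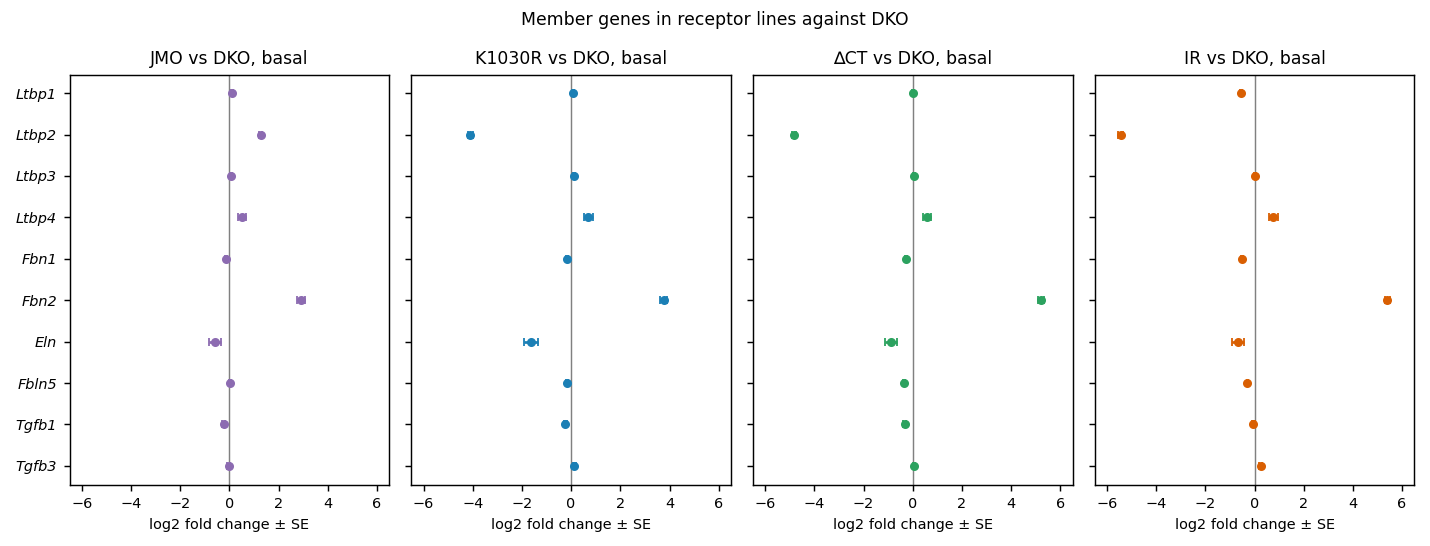
Each panel shows the log2 fold change of the 10 members in 1 basal receptor line against DKO, with bars of 1 SE from the edgeR fit. Ltbp2 lies at -5.44, -4.83 and -4.09 in IR, ∆CT and K1030R and at 1.27 in JMO, while Fbn2 lies right of 0 in all 4 panels.

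Between receptor lines, Fbn2 accounted for nearly all members past 1.5-fold. It was the 1 member of 9 called in basal IR against JMO (4.59% of all genes) and ∆CT against JMO (4.50%), and the 1 of 9 in K1030R against JMO (3.64%). That last call was lost without K1030R replicate 2, K1030R replicate 3 or JMO replicate 1 (0 of 9), and with DESeq2 or limma. Between K1030R and IR, 2 of 10 members passed (Ltbp2 and Fbn2, 1.04% of all genes), of which Fbn2 alone passed with DESeq2 and limma. Counts out of 10 include Ltbp2, which was chosen from the same libraries on other comparisons. Between ∆CT and IR none of 10 passed (0.708% of all genes), though 7 had an unadjusted p under 0.05 with no minimum fold, as did 5509 of all 15402 genes, and none passed with DESeq2 or limma. Between ∆CT and K1030R, 1 of 10 passed (Fbn2, 0.039% of all genes, which are 6 genes).

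With no minimum fold, 6 of 9 members passed in basal IR against JMO (42.4% of all genes), 4 of 9 in K1030R (35.4%) and 3 of 9 in ∆CT against JMO (38.8%). With insulin the numbers were 6 (40.2%), 4 (38.4%) and 4 of 9 (33.1%). Between K1030R and IR cells 6 of 10 passed (30.2%), between ∆CT and IR 6 of 10 (26.1%) and between ∆CT and K1030R 4 of 10 (3.43%). The ∆CT to IR count was 3 without IR replicate 1, and the ∆CT to K1030R count was 2 without K1030R replicate 2.

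With insulin the line comparisons gave a like picture. Fbn2 was the 1 of 9 members past 1.5-fold in IR against JMO (log2 fold change 2.45, 4.67% of all genes) and in ∆CT against JMO (2.40, 4.27%). In K1030R against JMO, Fbn2 (0.94) and Eln (-1.45) were past it (3.90% of all genes), and Eln was not when K1030R with insulin replicate 1 or 3 or JMO with insulin replicate 3 was left out, leaving 1. Neither Fbn2 nor Eln was past it with DESeq2 or limma. Ltbp2 with insulin read 109, 106 and 115 CPM in JMO libraries, 2.83, 2.10 and 2.54 CPM in K1030R, 1.70 and 2.0 CPM in ∆CT and 1.18, 1.33 and 1.48 CPM in IR libraries, the same 2 ranges as without insulin.

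Within a line, insulin for 15 min was tested in 10 members. No member passed 1.5-fold in IR (0.221% of all genes), K1030R (0%), ∆CT (0.214%) or JMO cells (0.039%) by edgeR, DESeq2 or limma. With no minimum fold, the numbers of members passing were 1, 0, 0 and 0 of 10, beside 1.87%, 0.156%, 1.01% and 0.364% of all genes, and 3, 0, 0 and 1 had an unadjusted p under 0.05, as did 2261, 937, 1477 and 1079 of all 15402 genes. The 1 member was Fbln5 in IR cells, at 126, 120 and 116 CPM basal and 108, 115 and 108 CPM with insulin, groups that did not overlap. Its log2 fold change was -0.13 (95% interval -0.21 to -0.06, adjusted p = 0.0461), and that p ranged from 0.00948 to 0.381 as single libraries of any group were left out. Ltbp3 in IR cells had a log2 fold change of -0.13 (adjusted p = 0.0965), which was -0.19 without IR replicate 3 (adjusted p = 0.00133). The 95% interval for Ltbp2 was -0.19 to 0.66 in IR, -0.51 to 0.09 in K1030R, -0.28 to 0.51 in ∆CT and -0.20 to -0.01 in JMO cells. For Fbn2 it was -0.26 to 0.00 in IR, -0.18 to 0.16 in K1030R, -0.13 to 0.17 in ∆CT and -0.29 to 0.12 in JMO cells. No member's insulin effect in K1030R, ∆CT or JMO differed from that in IR cells past the threshold (lowest adjusted p = 0.516).

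**Figure D4:**
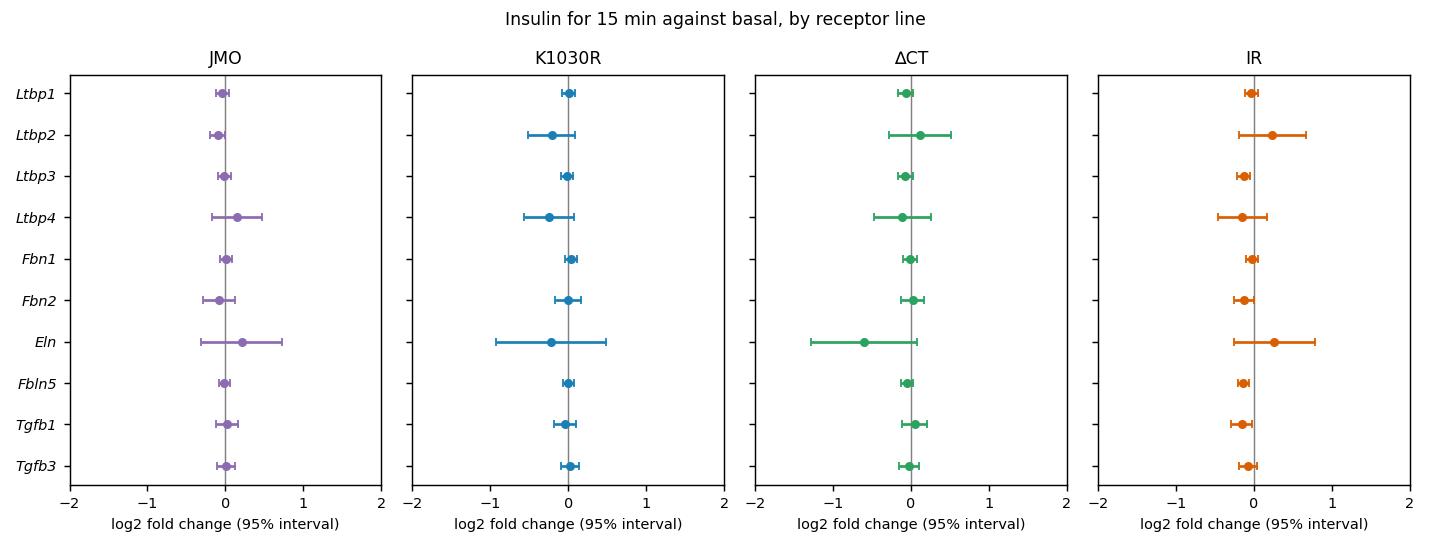
Each panel shows the log2 fold change of the 10 members with insulin against basal in 1 receptor line, with 95% intervals from the edgeR fit. Intervals are narrow for high genes such as Ltbp1 and Fbn1 and wide for Eln, a gene with few counts.

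The partners of these genes were read from 4 lists, written with earlier results of these data known. Their counts with no minimum fold stand beside the share of all genes that passed in either direction, which was 34.3% for JMO, 41.6% for K1030R, 46.3% for ∆CT and 49.8% for IR cells, and medians of 0.01 over all genes in each line. Of 16 tested elastic fibre partners, 7 were higher and 6 lower in IR than in DKO cells with no minimum fold, 4 and 7 in K1030R, 5 and 7 in ∆CT, and 3 and 6 in JMO cells. Adamts17, a secreted protease, rose from 0.445 ± 0.144 CPM (SD, n = 3) in DKO to 4.59 ± 0.387 CPM in IR (3.40 ± 0.26, adjusted p = 2.3e-13), and to 1.85 ± 0.325 CPM in ∆CT cells (2.08 ± 0.29, adjusted p = 2.2e-07). The microfibril-associated gene Mfap5 read 1.10 ± 0.0352 CPM in DKO and 0.332 ± 0.210 CPM in JMO cells (-1.73 ± 0.43). Its group means in IR, K1030R and ∆CT cells were 0.178 to 0.191 CPM. Outside DKO, Mfap5 exceeded 0.5 CPM only in single JMO libraries, basal (0.561 CPM) and with insulin (0.649 CPM). It thus passed the filter through DKO, where it was high, so its lower values elsewhere are a description with no test. The fibulin Fbln1 was lowest in K1030R cells, at 60.1 ± 2.04 CPM against 132 ± 9.73 CPM in DKO (-1.14 ± 0.09, adjusted p = 3.7e-09). Vcan, which encodes the proteoglycan versican that binds fibrillin, was higher in JMO (0.48 ± 0.03, adjusted p = 3.7e-13) and lower in IR cells (-0.60 ± 0.04, adjusted p = 2.4e-16), the directions of Ltbp2 in those lines. Efemp1, a fibulin relative, was lower in K1030R (-0.80 ± 0.06, adjusted p = 2.7e-13) and JMO (-0.60 ± 0.06, adjusted p = 3.1e-10) and higher in IR cells (0.32 ± 0.05, adjusted p = 5.5e-06). Mfap2 and Adamtsl2 were at 0.369 to 1.41 and 3.37 to 8.02 CPM as group means of the basal lines.

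The second list holds genes that release or present latent TGF-β. Of 14 tested, 4 were higher and 7 lower in IR than in DKO cells, 3 and 9 in K1030R, 3 and 10 in ∆CT, and 2 and 9 in JMO cells, with medians of -0.20, -0.20, -0.25 and -0.25 on the log2 scale. Lrrc32, the membrane anchor for latent TGF-β known as GARP, went from 5.46 ± 0.753 CPM in DKO to 1.38 ± 0.0257 in IR (-1.98 ± 0.18, adjusted p = 1.6e-11), 1.14 ± 0.0967 in ∆CT (-2.26 ± 0.18, adjusted p = 1.7e-12) and 0.984 ± 0.378 CPM in K1030R cells (-2.50 ± 0.19, adjusted p = 4.9e-13). In JMO cells it read 3.92 ± 0.461 CPM. Tgfb2, the ligand not among the 10 members, rose in all 4 lines, from 2.32 ± 0.075 CPM in DKO to 9.16 ± 0.623 in IR (1.98 ± 0.13, adjusted p = 1.1e-14), 6.27 ± 0.459 in ∆CT (1.44 ± 0.14), 5.60 ± 0.408 in K1030R (1.27 ± 0.14) and 5.79 ± 0.408 CPM in JMO cells (1.32 ± 0.14, adjusted p = 2.3e-09).

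Tll1, a protease that can cut Ltbp1, also rose in the 4 lines, by 1.06 to 1.49 on the log2 scale. Mmp2, a gelatinase, fell by 1.43 in K1030R (adjusted p = 3.1e-19), 1.01 in JMO (adjusted p = 3.1e-15) and 0.90 in ∆CT cells (adjusted p = 1.6e-14), with -0.07 ± 0.06 in IR cells (adjusted p = 0.357). Mmp14, the membrane protease that activates Mmp2, was higher in IR (0.40 ± 0.04, adjusted p = 7.8e-10) and lower in JMO cells (-0.59 ± 0.04, adjusted p = 5.3e-13). The integrin subunits Itgb8 and Itgb3, partners in integrins that activate latent TGF-β, had negative values in all 4 lines, from -1.02 to -0.27 and from -0.86 to -0.45. Itgb8 in JMO missed the threshold without DKO replicate 1 or 3 or JMO replicate 1 or 2 (adjusted p 0.0567 to 0.108).

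Among 16 tested TGF-β receptors and SMADs, 3 were higher and 8 lower in IR than in DKO cells, 3 and 9 in K1030R, 3 and 11 in ∆CT, and 1 and 7 in JMO cells. Tgfbr2, the ligand-binding receptor, read 98.3 ± 4.66 CPM in DKO and 169 ± 5.40 CPM in IR (0.79 ± 0.03, adjusted p = 3.2e-20), with 0.51 ± 0.03 in ∆CT (adjusted p = 7.4e-15) and 0.46 ± 0.03 in K1030R cells (adjusted p = 1.6e-13). Skil, a SMAD corepressor that is itself a target of the pathway, fell in all 4 lines, from 119 ± 2.17 CPM in DKO to 69.3 to 81.3 CPM as group means (adjusted p from 1.0e-19 to 5.2e-15).

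The last list holds 11 TGF-β target genes, some of which rose and more of which fell. Among them is Skil, also in the list of receptors and SMADs, so its fall is counted in both. In IR cells 2 were higher and 8 lower than in DKO cells, in K1030R 3 and 7, in ∆CT 1 and 9, and in JMO 2 and 7, with medians of -0.38, -0.33, -0.56 and -0.25. Ccn2, a matricellular growth factor, fell from 76.7 ± 6.24 CPM in DKO to 17.6 to 28.0 CPM in the 4 lines (log2 fold change -2.12 to -1.45). Tnc, the matrix glycoprotein tenascin C, fell most in IR (-1.12 ± 0.07) and ∆CT cells (-0.86 ± 0.07). Pmepa1, which dampens TGF-β signalling, fell in all 4 lines (-0.97 to -0.56).

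Postn was the target that rose most. Postn, a matrix protein also called periostin, read 51.0 ± 3.25 CPM in DKO and 346 ± 22.0 CPM in IR (2.76 ± 0.14, adjusted p = 7.2e-12), 142 ± 31.6 CPM in ∆CT (1.47 ± 0.14, adjusted p = 8.1e-08) and 92.9 ± 13.6 CPM in K1030R cells (0.86 ± 0.15, adjusted p = 8.8e-05). JMO cells held 58.9 ± 8.04 CPM (0.20 ± 0.15, adjusted p = 0.33), and this value passed the threshold with no filter on low counts (adjusted p = 0.000259). Tgfbi, a secreted adhesion protein, was also higher in IR (0.82 ± 0.08, adjusted p = 1.1e-07) and lower in JMO cells (-0.47 ± 0.09, adjusted p = 0.000402). The contractile genes Tagln and Acta2 were higher in JMO (0.61 ± 0.07 and 0.27 ± 0.03) and K1030R (0.30 ± 0.07 and 0.30 ± 0.03) and lower in IR (-0.31 ± 0.07 and -0.22 ± 0.03) and ∆CT cells (-0.48 ± 0.07 and -0.56 ± 0.03).

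**Figure D5:**
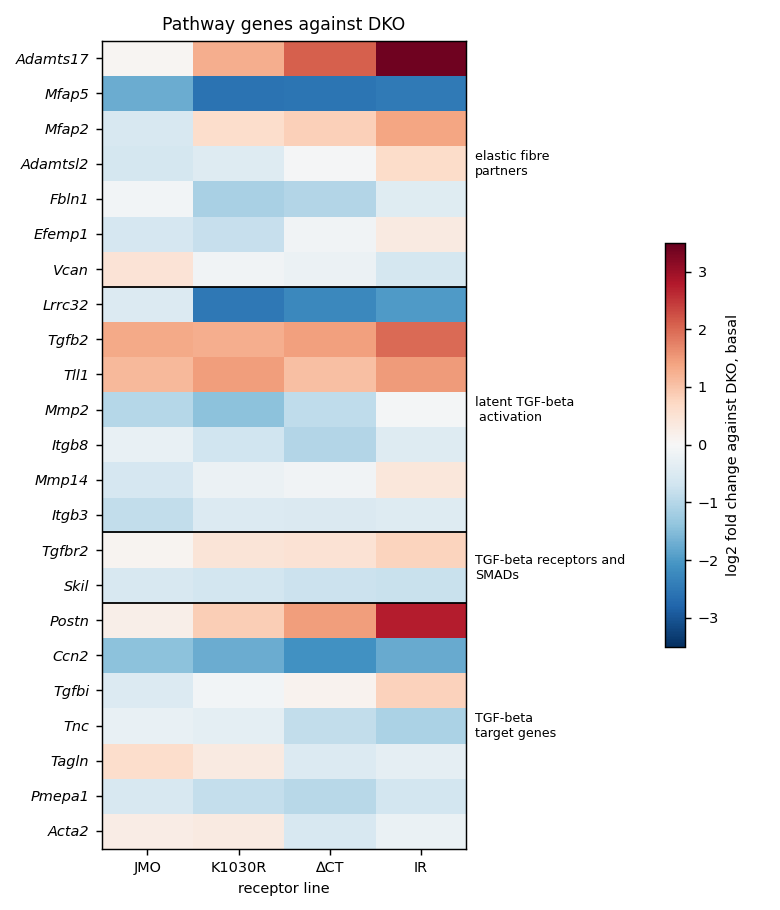
Rows are the named genes of the 4 lists and columns the basal receptor lines, and colour gives the log2 fold change against DKO, from blue for lower to red for higher. Tgfb2 and Tll1 are red in all 4 columns, Ccn2 and Skil are blue in all 4, and Adamts17 and Postn are reddest in IR.

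The genes whose levels were most like each member were found by Pearson r of log2 CPM over the 9 group means, which share lines and libraries, so r is a description. For Ltbp2 these were Lcn2 (r = 0.998), Cxcl5 (0.997) and Cacna1c (0.997). For Fbn2 they were Egfl6 (0.989), Plcb1 (0.989) and Plekha2 (0.988), for Ltbp1 Farsb (0.995), Incenp (0.993) and Ncl (0.991), and for Fbln5 Aldh1a1 (0.990), Pi4k2a (0.985) and Ptprj (0.981). None of the 10 members was among another member's closest 3 genes.

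The members lie on several chromosomes in GRCm38, and some share exonic sequence with a gene on the other strand. Ltbp2 spans chromosome 12 from 84783212 to 84876532, with 36 exons in its longest transcript, and its exons overlap D030025P21Rik, which read 0 to 0.918 CPM and averaged 0.238 in DKO, 0.747 in JMO and 0.0181 CPM in IR cells. Fbn2 spans chromosome 18 from 58008623 to 58210487, with 65 exons, and overlaps Gm26507, which was not analysed here. Other exon overlaps were Fbn1 with Gm9913 (0.561 to 2.39 CPM), Eln with Gm30003 (0 to 0.102 CPM) and Tgfb3 with Gm48008 (0 to 0.155 CPM) and Gm37804. The reads were stranded, but the strand setting used in counting is not given in the sources used here, so reads of a gene and its partner may not be told apart.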

How the data were processed

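Messenger RNA was captured with oligo-dT and sequenced as stranded single-end reads. The authors trimmed reads with fastp, quantified them against the Ensembl mouse transcriptome with kallisto, and passed transcript estimates to tximport for gene totals (per the methods and the submitters' processing notes). The deposited values are expected counts, neither filtered nor scaled, and 79.9% are whole.

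Values were rounded. Genes needed over 0.5 CPM in no fewer than 4 libraries, and TMM scaling was used. In edgeR 4.0.16 (R 4.3.3), glmQLFit (robust) gave each group its own mean, with 26 libraries sharing 1 estimate of the spread. Calls used glmTreat with a 1.5-fold minimum, and single genes glmQLFTest with no minimum; both were adjusted by Benjamini-Hochberg over all 15402 genes with a threshold of 0.05. An SE is the log2 fold change over the root of F. The biological coefficient of variation was 4.44%. Libraries of a group differed beyond counting noise (lowest chi-square per degree of freedom 2.83), so none was counted as a repeat of another. This does not show that they came from separate cultures. The code was tested on simulated data. DESeq2 1.42.0, limma 3.58.1 and other settings were alternatives.

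The members and lists were chosen with earlier results of these data known. Named genes are the members, up to 8 genes of each list that were called in a basal pair, by largest log2 fold change, and the 3 genes most similar to a member, printed for 4 members. Results for 1 named list gene and 1 overlapping gene are not reported here. Groups came from the labels, and no library was left out. Gene spans and exon overlaps are from GENCODE and promoter sequences from RefSeq, both on GRCm38.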

Additional observations from a re-analysis of the deposited data

How the results depend on the processing

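Of 6709 recomputed values of members over 200 comparisons, 6577 stayed on the same side of the threshold. Untested Ltbp2 values were counted among these when they moved by less than the spread between libraries. A further 99 no longer passed, 33 newly passed and none that had passed reversed. Of the 6577, 94 changed sign without passing in either setting.

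With no minimum fold, the counts of members called against DKO were 7 for IR and for K1030R, 6 for ∆CT and 5 for JMO; 6, 4 and 3 in IR, K1030R and ∆CT against JMO; 6, 4 and 4 in the same comparisons with insulin; 6 in K1030R against IR, 6 in ∆CT against IR, 4 in ∆CT against K1030R, and 1 with insulin in IR. The same rule called 26.1% to 49.8% of all genes in these line comparisons, except 3.43% in ∆CT against K1030R, and 1.87% with insulin in IR. The count for ∆CT against IR was 3 without IR replicate 1, and that for ∆CT against K1030R was 2 without K1030R replicate 2. The insulin count in IR was 2 without IR replicate 3, where Ltbp3 also passed. It was 0 without any single DKO library, IR replicate 1 or 2, JMO replicate 1 or K1030R replicate 2, or, among those with insulin, any single JMO, K1030R or ∆CT library or IR replicate 1 or 3. With DESeq2 and with a minimum fold of 2, the counts were 1 in K1030R against DKO, 1 in K1030R against IR, 0 in K1030R against JMO and 0 in the same comparison with insulin. limma TREAT gave 1, 0 and 0 for the last 3 of these. Without the filter on low counts, K1030R against JMO with insulin gave 1. Leaving out single libraries gave 0 to 1 for K1030R against JMO and 1 to 2 with insulin. The cause of these changes was not tested.

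Replicate numbers did not pair the libraries, since residuals of same-numbered libraries had a median correlation of -0.00111 (lowest -0.108). With the replicate block, the 1 member value to change its call was Ltbp1 in ∆CT against JMO with insulin (log2 fold change -0.12, adjusted p = 0.0309). Counts for the 4 lists were not recomputed under alternatives, and the alternatives for named list genes were chosen after seeing the data. The lists of 3 most similar genes shared 0 to 2 genes with those found over the 26 libraries. Low counts limit Eln, Ltbp4, Fbn2 in DKO and Ltbp2 in IR. Among list genes they limit Mfap2, Mfap5, most of all outside DKO, and Adamts17 in DKO.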
